A study of Mus musculus with 4 samples.

Results

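The genes described here are 9 genes of cellular senescence and of the p53 pathway, namely *Cdkn2a*, *Cdkn2b*, *Cdkn1a*, *Cdkn1b*, *Trp53*, *Mdm2*, *Lmnb1*, *Gdf15* and *Glb1*, measured in the septal nasal mucosa of young adult and aged mice. They were chosen by name, with earlier results of these data known, and were read through every non-control probe whose accession belongs to one of these symbols. They are 9 of 45604 genes tested, and 14 of 56605 non-control probes on the array. Cy3-labelled RNA was hybridized to 4 one-color Agilent arrays, of which 2 held young adult mice (8 weeks of age) and 2 held aged mice (16 months of age). All mice were of the C57BL/6J strain and labelled as male, and each array carried RNA pooled from 5 mice, so that *P* values measure the spread between pools and not between mice. The methods of the study list fewer animals for gene measurements than separate pools would take, so the pools of an age may share mice, and the spread between them may then be smaller than between independent pools. RNA came from whole mucosa, which holds olfactory epithelium together with lamina propria, vessels and glands, and markers of bone and cartilage were measurable as well.

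Cellular senescence is a lasting arrest of the cell cycle. Cyclin-dependent kinase (CDK) inhibitors hold it in place: the products of *Cdkn2a* and *Cdkn2b* block the kinases that inactivate the retinoblastoma protein, and p53 acts through *Cdkn1a*. Senescent cells in many tissues lose lamin B1, gain lysosomal beta-galactosidase activity and secrete cytokines and proteases, the senescence-associated secretory phenotype (SASP). The olfactory epithelium is rebuilt throughout life from dividing basal cells, so arrest and division occur side by side in this tissue.

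Some labels did not match the measurements or the study, and they were checked first. A description field names silica aspiration and lung cells, against the titles and the tissue label. All 10 markers of mature olfactory receptor neurons (ORNs) were well above background on all 4 arrays, with summed levels of 570200 to 640100. Of 8 markers of lung alveolar cells, 5 were also well above background on all 4 arrays (*Sftpc*, *Sftpd*, *Lamp3*, *Ager* and *Napsa*), and *Sftpb* and *Sftpa1*, which encode surfactant proteins, cleared it on none. *Sftpd*, a secreted collectin, had levels of 21910 and 20080 in the young adult pools against 19750 and 17810 in the aged pools, and *Sftpc*, a surfactant protein of alveolar type II cells, had 370.3 and 348.8 against 205.0 and 220.5. *Xist*, the RNA that coats the inactive X in female cells, lay between 612.3 and 645.4 on the 4 arrays, and 6 of the 7 Y chromosome genes cleared the background on none of them, against the male label. The pattern of *Xist* and the Y genes was alike at both ages, and every result below rests on these arrays. Between 63.1% and 76.8% of non-control spots were well above background, no spot was saturated, and the values of the 2 arrays of an age correlated across genes at r = 0.987 for each age. The arrays numbered 1 of each age shared 1 slide, and the other arrays had slides of their own.

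None of the 9 genes passed the criteria of a *P* below 0.05 and a false discovery rate (FDR) below 0.25 in limma's moderated test, and 0 of 9 had an unadjusted *P* below 0.05. Over all genes, 3.98% passed both criteria (1.65% higher and 2.33% lower in aged mice), and 13.1% had a *P* below 0.05. In log2 difference (aged minus young adult), 3 of the 9 lay above 0 and 6 below. The 95% interval of the difference lay within 1.5-fold in either direction for 7 of the 9 genes, the exceptions being *Cdkn2a* and *Trp53*. In a bulk sample, fewer cells that express a gene and less RNA per cell cannot be told apart. Permuting 2 arrays against 2 allows no exact two-sided *P* under 0.333 for any gene, and no FDR in the whole table was lower than 0.0945. The levels given are background-corrected, quantile-normalized intensities.

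**Figure D1:**
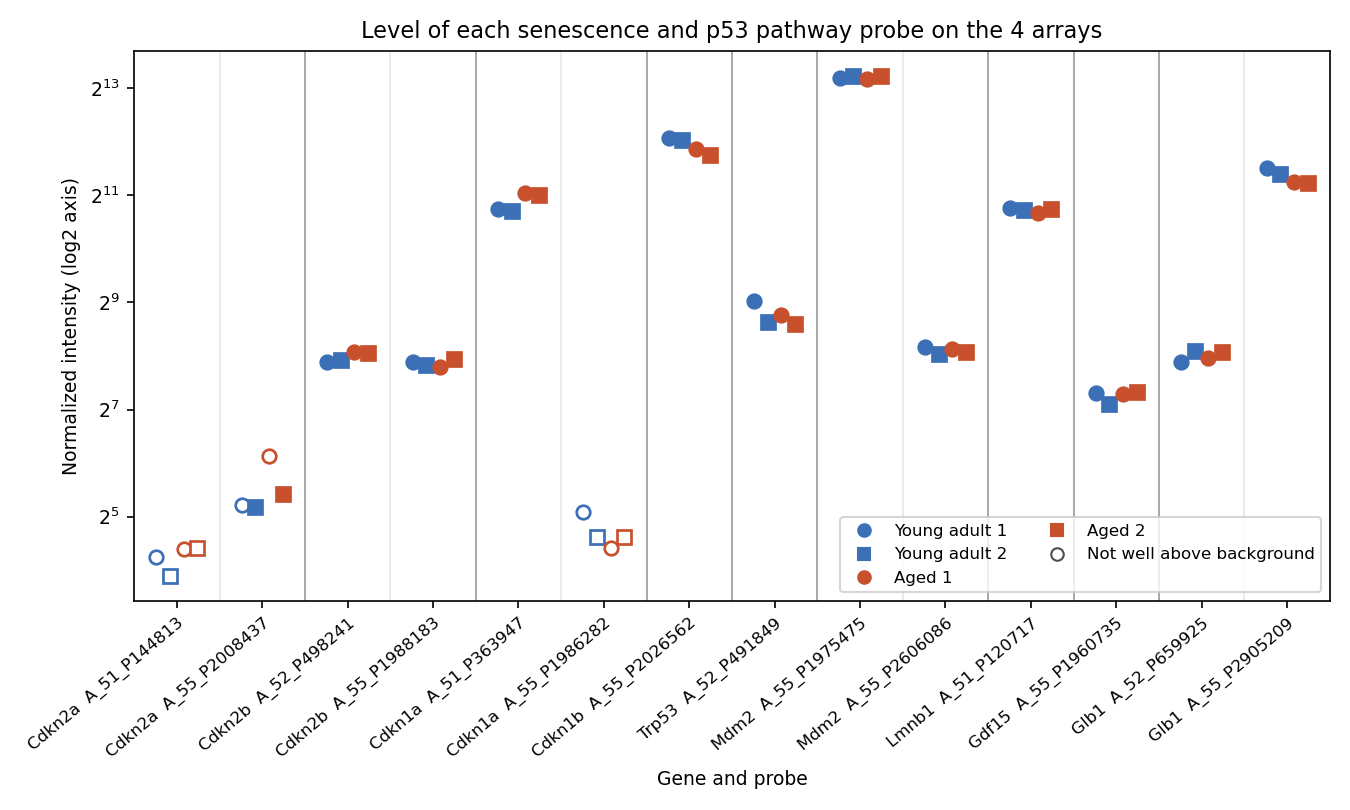
Normalized intensity (log2 axis) of the 14 probes of the 9 genes on young adult arrays 1 and 2 (blue circle and square) and aged arrays 1 and 2 (red circle and square), with open symbols where a spot was not well above background. The 2 probes of *Cdkn2a* and 1 of the 2 probes of *Cdkn1a* lie at the low end, mostly with open symbols, whereas 11 probes were well above background on all 4 arrays. Heights of different probes cannot be compared, because probes differ in brightness.

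*Cdkn2a* encodes 2 proteins from alternative starts, p16INK4a, which inhibits CDK4 and CDK6, and p19ARF, which binds MDM2 and so spares p53 from degradation. Its probe A_55_P2008437 had levels of 37.3 and 36.1 for the young adult pools against 70.4 and 43.0 for the aged pools. Both aged arrays lay above both young adult arrays, but the spot was well above background only on young adult array 2 and aged array 2, and the highest value, on aged array 1, was not. The spot signals before any correction were 77 and 61 in the young adult pools against 110 and 62.5 in the aged pools, over local backgrounds of 65.5, 36, 63 and 41. The other probe, A_51_P144813, was not well above background on any array, with levels of 19.0, 14.9, 21.1 and 21.4.

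Averaged over both probes, the level of *Cdkn2a* was 24.9 ± 2.42 (SD, n = 2 pools) at 8 weeks and 34.4 ± 5.77 at 16 months. Aged minus young adult, this is a log2 difference of 0.46 (95% interval -0.045 to 0.97, FDR = 0.41 by limma), 1.38-fold, and it did not pass the test. It was 0.53 between the arrays of the shared slide and 0.39 between the other pair. The size depended on the processing. The log2 difference was 0.19 with an offset of 50 added to the corrected signal. With the scanner software's processed signal it was 0.77 when scaled to the 75th percentile and 0.53 when quantile normalized. When only probes that cleared the background on both arrays of an age were kept, *Cdkn2a* had no value. Both of its probes carry the accession of the p19ARF transcript, and the files do not say whether they lie in the exons shared with p16INK4a, so the products were not measured apart.

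The sequence before each start is shown because the products of this gene are read from separate promoters. In RefSeq on the GRCm38.p6 assembly, *Cdkn2a* has 2 starts on the minus strand of chromosome 4, 12427 bases apart, of which the upstream one is that of p19ARF. The 150 bases before each start are printed 5′ to 3′, and capitals mark a match to the E2F site, the motif bound by the factors that the retinoblastoma protein restrains (TTTCCCGC, TTTCGCGC, TTTGCCGC or TTTGGCGC, either strand). The upstream window, chr4:89294620-89294769, held a match that begins 99 bases before the start. The downstream window, chr4:89282193-89282342, held none.
Cdkn2a upstream start: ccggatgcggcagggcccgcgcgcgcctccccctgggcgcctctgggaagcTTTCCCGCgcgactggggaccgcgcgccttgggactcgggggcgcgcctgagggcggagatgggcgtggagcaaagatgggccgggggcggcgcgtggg
Cdkn2a downstream start: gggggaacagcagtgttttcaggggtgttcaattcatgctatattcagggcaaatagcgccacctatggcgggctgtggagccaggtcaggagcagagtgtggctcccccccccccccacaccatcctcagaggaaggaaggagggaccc
Of 32851 RefSeq promoter windows of 300 bases (250 before the start and 50 from it on), 2.26% held such a match. A match is a description of the letters and not evidence of a bound site.

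*Cdkn2b* lies beside *Cdkn2a* and encodes p15INK4b, another inhibitor of CDK4 and CDK6. Its level was 237.0 and 236.6 for the young adult pools against 244.9 and 255.8 for the aged pools, all well above background. Both aged arrays lay above both young adult arrays, by a small margin. With a log2 difference of 0.080 (95% interval -0.15 to 0.31, FDR = 0.71 by limma), *Cdkn2b* did not pass the test. Its 2 probes gave log2 differences of 0.15 for A_52_P498241, for which the ages did not overlap, and 0.0053 for A_55_P1988183, for which they did.

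*Cdkn1a* encodes p21, the CDK inhibitor through which p53 arrests the cell cycle, and its 2 probes gave different pictures. Probe A_51_P363947 had levels of 1713 and 1680 in the young adult pools against 2110 and 2045 in the aged pools, far above background on every array. Both aged arrays lay above both young adult arrays, and the arrays of each age lay close together. The log2 difference was 0.29 (95% interval 0.065 to 0.52), 1.23-fold, with an unadjusted *P* of 0.0249 and FDR = 0.304 in limma's fit over all probes, and it was 0.30 within the shared slide and 0.28 in the other pair. The other probe, A_55_P1986282, had levels of 34.1 and 24.7 in the young adult pools against 21.4 and 24.8 in the aged pools, and no array held it well above background. The mean over the probes, which the averaging step gives, was therefore 222.6 ± 26.9 (SD, n = 2 pools) at 8 weeks and 218.9 ± 8.73 at 16 months.

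The log2 difference of *Cdkn1a* averaged in this way was -0.020 (95% interval -0.39 to 0.35, FDR = 0.96 by limma). It was -0.18 within the shared slide and 0.15 in the other pair. When only probes that cleared the background on both arrays of an age were tested, the bright probe stood for the gene, and *Cdkn1a* rose by 0.29 on the log2 scale (FDR = 0.0866 by limma). In that analysis 29495 genes were tested and 24.2% of them passed, so that passing was far more common than in the analysis of all probes. With the brightest probe of each gene it was also 0.29 and missed the criterion (FDR = 0.298), and over all settings its FDR ran from 0.0866 to 0.997. Of the 14 probes in the analysis by probe, 0 passed both criteria, against 4.50% of all probes, and A_51_P363947 was the 1 probe with an unadjusted *P* below 0.05.

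The probes of *Cdkn1a* carry the accessions of different transcripts, and RefSeq on GRCm38.p6 gives the gene 2 starts on the plus strand of chromosome 17, 2790 bases apart. The reference table does not say which accession begins at which start. The 150 bases before each start are printed 5′ to 3′ because p53 acts on this gene through elements near the upstream start, and capitals mark matches to the p53 decamer consensus, a pair of which makes up a p53 response element (read on either strand; none overlapped an E2F match).
Cdkn1a upstream start: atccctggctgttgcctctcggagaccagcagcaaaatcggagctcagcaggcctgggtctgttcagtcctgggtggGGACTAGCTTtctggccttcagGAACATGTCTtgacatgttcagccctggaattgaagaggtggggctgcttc
Cdkn1a downstream start: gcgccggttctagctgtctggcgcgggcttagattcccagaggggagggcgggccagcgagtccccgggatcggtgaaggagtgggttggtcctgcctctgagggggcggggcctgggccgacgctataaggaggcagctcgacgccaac
The upstream window, chr17:29090829-29090978, held GGACTAGCTT beginning 73 bases before the start and GAACATGTCT beginning 51 bases before it, with 12 bases between them. The decamer directly after GAACATGTCT, tgacatgttc, misses the consensus at its first base only and is therefore not in capitals. Capitals mark full matches only, and which decamers p53 binds as a pair was not tested. The downstream window, chr17:29093619-29093768, held no match. A pair of matches with at most 13 bases between them was found in 24 of the 32851 windows of 300 bases (0.0731%), and at least 1 match in 8.36%. Single matches also lay before the starts of *Trp53* (GGACTTGCCC, 75 bases before) and *Mdm2* (GAACTTGCCT, 186 bases before). Windows were given for 8 of the 9 genes, and those of *Cdkn2b*, *Cdkn1b*, *Gdf15* and *Glb1* held neither motif.

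*Cdkn1b* encodes p27, the CDK inhibitor that keeps quiescent and differentiated cells out of the cycle. Its level was 4317 and 4206 for the young adult pools against 3742 and 3453 for the aged pools. The aged arrays were the lower pair without overlap. The log2 difference was -0.25 (95% interval -0.51 to 0.015), 0.844-fold, and FDR = 0.398 by limma. It was -0.21 within the shared slide and -0.28 in the other pair, and it lay between -0.30 and -0.19 over all settings. With the same log2 difference, *Cdkn1b* fell in 2 of these settings: with dim probes left out (FDR = 0.152, where 24.2% of all genes passed) and with an intensity trend in the moderation of the variance (FDR = 0.0583, where 15.6% of all genes passed). Over all settings its FDR ran from 0.0583 to 0.684.

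*Trp53* encodes p53, the transcription factor that responds to DNA damage and other stress and is regulated mostly through the stability of the protein. Its level was 519.0 and 399.1 for the young adult pools against 436.0 and 386.8 for the aged pools, so that the ages overlapped. The young adult arrays differed from each other more than the means of the ages did. The log2 difference was -0.15 (95% interval -0.68 to 0.38, FDR = 0.76 by limma), and it was 0.042 without young adult array 1. The interval reaches past a fall of 1.5-fold, so that these arrays do not bound the difference to less than that.

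*Mdm2* encodes the ubiquitin ligase that targets p53 for degradation and is itself transcribed from a p53-responsive promoter. Its probe A_55_P1975475 had levels of 9386 and 9608 in the young adult pools against 9254 and 9573 in the aged pools. Its probe A_55_P2606086 had levels of 288.2 and 264.2 in the young adult pools against 278.6 and 269.5 in the aged pools. For both probes the ages overlapped, and their log2 differences, -0.013 and -0.010, were nearly equal. The log2 difference of the gene was -0.012 (95% interval -0.24 to 0.21, FDR = 0.96 by limma), the closest to 0 of the 9 genes.

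*Lmnb1* encodes lamin B1, a filament of the nuclear lamina that many senescent cells lose. Its level was 1729 and 1701 for the young adult pools against 1628 and 1707 for the aged pools. Aged array 2 lay between the young adult arrays and aged array 1 below them. The log2 difference was -0.041 (95% interval -0.28 to 0.19, FDR = 0.85 by limma), so that a fall of 1.5-fold lay outside the interval.

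*Gdf15* encodes a secreted stress cytokine of the TGF-beta superfamily that p53 and the integrated stress response both induce. Its level was 157.8 and 137.2 for the young adult pools against 156.1 and 160.3 for the aged pools. Young adult array 2 was the lowest, and the other arrays lay close together. This gave a log2 difference of 0.10 (95% interval -0.22 to 0.42, FDR = 0.72 by limma), and within the shared slide it was -0.016.

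*Glb1* encodes lysosomal beta-galactosidase, the enzyme behind the galactosidase stain used for senescent cells. Its probe A_55_P2905209 had levels of 2904 and 2686 in the young adult pools against 2419 and 2390 in the aged pools, without overlap, and its probe A_52_P659925 had levels of 236.0 and 271.8 in the young adult pools against 250.6 and 268.8 in the aged pools, with overlap. The log2 differences of the probes were -0.22 (FDR = 0.42 by limma over all probes) and 0.035. Averaged over both, the gene had a log2 difference of -0.090 (95% interval -0.32 to 0.14, FDR = 0.67 by limma). The mean level of the gene was 841.1 ± 18.9 (SD, n = 2 pools) at 8 weeks and 790.1 ± 16.3 at 16 months, and its arrays did not overlap between ages.

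**Figure D2:**
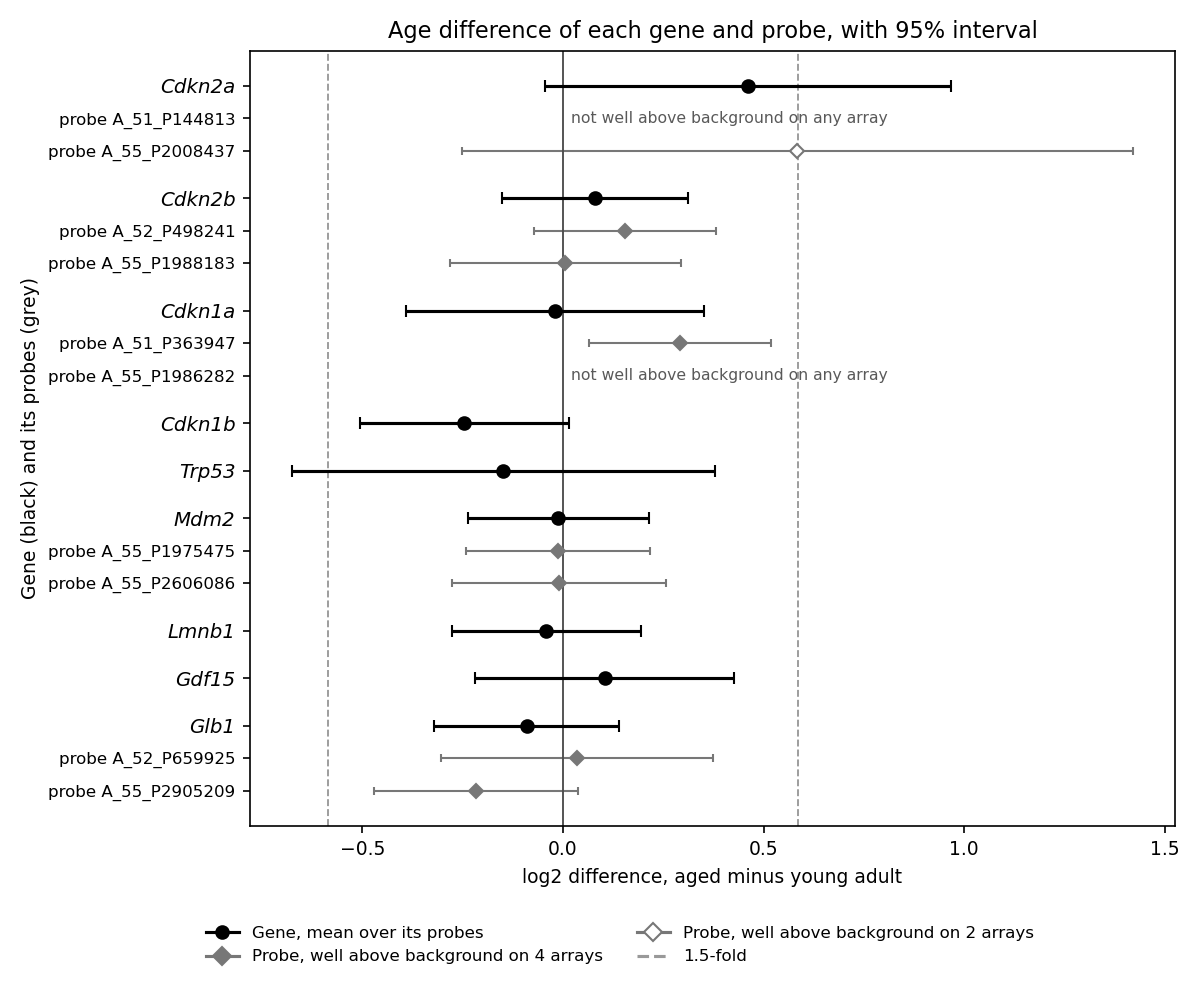
log2 difference (aged minus young adult) of each gene (black circles, mean over its probes) and of probes where a gene has 2 (grey diamonds), with 95% intervals from limma. Dashed lines mark 1.5-fold. The 2 probes well above background on no array, 1 of *Cdkn2a* and 1 of *Cdkn1a*, have a note in place of a point, but count in the gene means. The interval of every gene includes 0, and only that of *Cdkn1a* probe A_51_P363947, at 0.29, lies wholly above 0.

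The arrays of the ages did not overlap for 4 of the 9 genes, *Cdkn2a* and *Cdkn2b* with the aged arrays higher and *Cdkn1b* and *Glb1* with the aged arrays lower, where 46.0% of all genes had arrays that did not overlap. The log2 differences of the 4 CDK inhibitors thus had no common sign. The signs of *Cdkn2b*, *Cdkn1b*, *Lmnb1* and *Glb1* were the same in every setting tried, whereas *Cdkn1a* took the opposite sign in 9 of 17 settings and *Mdm2* in 4 of 17. The sign of *Cdkn2a* was the same in the 16 settings that gave it a value, all of them from spots close to background.

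**Figure D3:**
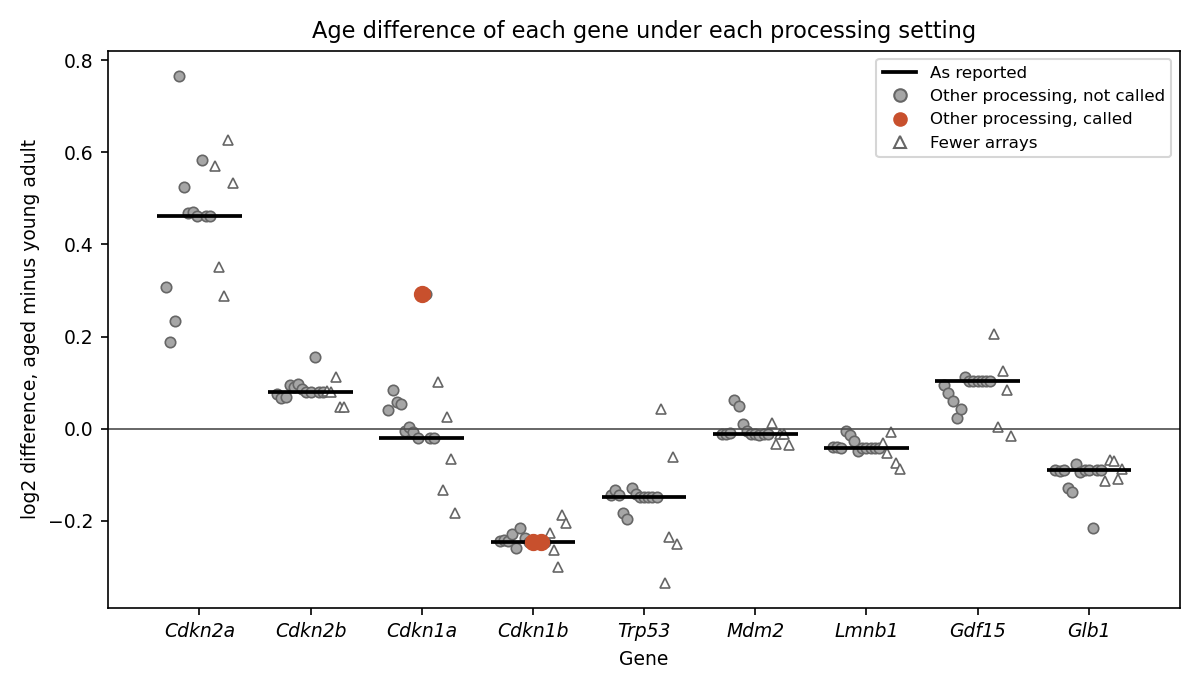
log2 difference (aged minus young adult) of each of the 9 genes with the values as reported (black bars), under other processing (grey circles, red where the gene passed the criteria) and with fewer arrays (open triangles). *Cdkn2a* lies above 0 in every setting that gave it a value, between 0.19 and 0.77. *Cdkn1a* lies on both sides of 0, and *Cdkn1b* lies below 0 throughout, with red points for *Cdkn1a* and *Cdkn1b* only.

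The genes around these 9 were read from 9 lists of pathway genes, which hold 211 measured genes. Of these, 35 (16.6%) passed the criteria in limma, 6 higher and 29 lower in aged mice, against 3.98% of all genes (1.65% higher and 2.33% lower), and most of the 35 were SASP and proliferation genes. The median log2 difference of all 45604 genes was 0.0093.

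Among the target genes of p53, 33 of 34 were measured, and all 33 were well above background on every array. The list had 23 genes above 0 and 10 below, with a median log2 difference of 0.078, and 1 rose and 3 fell, 12.1% against 3.98% of all genes. These calls depended on the processing and on the rule. No target passed with 75th percentile scaling, where 3.09% of all genes passed, or with that scaling of the processed signal, where 3.3% passed. None passed under the methods' rule for differentially expressed genes (mean level 100 or more, fold change 1.5 or more), where 1.96% of all genes did. With an offset of 50, 5 targets passed in each direction, where 10% of all genes passed. *Ephx1*, a detoxifying epoxide hydrolase abundant in the olfactory mucosa, rose from 63810 and 65170 in the young adult pools to 84690 and 90460 in the aged pools (log2 difference 0.44, FDR = 0.248 by limma). *Btg2*, an antiproliferative gene that is also induced as an immediate early gene, fell from 5313 and 5389 to 3862 and 3939 (-0.46, FDR = 0.226). *Phlda3*, a repressor of AKT signalling, fell by 0.45 on the log2 scale (FDR = 0.236), and *Pmaip1*, the pro-apoptotic NOXA, also fell by 0.45 (FDR = 0.241). The arrays did not overlap for 13 targets with aged mice higher and for 8 with aged mice lower, of 33, where 46.0% of all genes did not overlap. Of the 29 that did not pass, 3 are named here, chosen after their values were seen, as examples of a large, a middling and a small difference. All 3 lay above 0, so that they do not stand for the 10 targets of the list below 0. *Eda2r*, a death-domain receptor, had levels of 35.7 and 35.0 in the young adult pools against 64.4 and 50.7 in the aged pools (log2 difference 0.69, FDR = 0.274), *Ddb2*, a DNA damage sensor, had a log2 difference of 0.28 (FDR = 0.311), and *Bax*, a pore-forming apoptotic protein, had one of 0.097 (FDR = 0.68).

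Among the regulators and relatives of p53, 1 of 21 genes passed (4.76%), a share close to the 3.98% of all genes. *Chek2*, a kinase that activates p53 after DNA damage, fell from 114.6 and 120.6 to 80.7 and 85.8 (log2 difference -0.50, FDR = 0.234 by limma), and it was well above background on 1 of the 2 aged arrays. It did not pass with 75th percentile scaling of the background-corrected signal or under the methods' rule. With that scaling of the processed signal, 1 gene of the list passed, lower in aged mice. The median of the list was 0.028.

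Among the CDK inhibitors, cyclins and E2F factors of the retinoblastoma axis, 2 of 21 genes passed (9.52%, against 3.98% of all genes) and the median log2 difference was -0.13. *Ccnd2*, a D-type cyclin, fell from 6000 and 5953 to 3924 and 3750 (log2 difference -0.64, FDR = 0.196 by limma), and *E2f2*, an activator of S-phase genes, fell by 0.61 (FDR = 0.206). Of the regulators of the *Cdkn2a* locus, 1 of 18 passed (5.56%, close to that of all genes): *Twist1*, a mesenchymal transcription factor that represses the locus, fell from 540.8 and 562.0 to 375.0 and 362.6 (-0.58, FDR = 0.206), although not under the methods' rule. The median of that list was -0.073, and no Polycomb gene of the list passed.

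In the lists around *Lmnb1* and *Glb1*, few genes passed. Of 14 genes of the nuclear lamina and chromatin, 0 passed in limma, 0 had an unadjusted *P* below 0.05, and the median log2 difference was 0.024. Of 20 lysosomal genes 1 passed, a share of 5% close to the 3.98% of all genes: *Atp6v0d2*, a proton pump subunit of osteoclasts and macrophages, fell from 261.8 and 246.3 to 176.2 and 174.4 (-0.53, FDR = 0.214 by limma). It did not pass with 75th percentile scaling of the background-corrected signal or under the methods' rule. With that scaling of the processed signal, 1 gene of the lysosomal list passed, lower in aged mice. The median of the lysosomal list was -0.075. Of 11 genes of the GDF15 axis and the stress response, 1 rose and 2 fell (27.3%, against 3.98% of all genes). *Chac1*, a glutathione-degrading enzyme induced by ATF4, rose from 2912 and 2571 to 6057 and 5912 (1.13, FDR = 0.178), whereas the immediate early genes *Atf3* and *Egr1* fell by 0.78 (FDR = 0.188) and 0.43 (FDR = 0.249). Of these genes, *Egr1* did not pass under the methods' rule.

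The SASP list had 4 genes that rose and 11 that fell among 48 (31.2%, against 3.98% of all genes), with a median log2 difference of -0.27. *Il6*, its leading cytokine, rose from 32.9 and 39.4 to 112.9 and 116.1 (log2 difference 1.67, FDR = 0.178 by limma), although it was well above background on only 1 young adult array. *Angptl4* (0.85, FDR = 0.184), a secreted regulator of lipoprotein lipase, *Csf2* (0.84, FDR = 0.178), the cytokine GM-CSF, and *Ereg* (0.64, FDR = 0.208), a growth factor well above background on 1 array of each age, also rose. The genes that fell furthest were *Spp1*, the matrix protein osteopontin, from 8866 and 8793 to 3516 and 3531 (-1.32, FDR = 0.168), and the matrix proteases *Mmp13* (-1.19, FDR = 0.178), *Mmp9* (-1.16, FDR = 0.211) and *Mmp12* (-0.86, FDR = 0.178). These 4 genes are also made by bone cells, osteoclasts or macrophages. Under the methods' rule 2 genes of the SASP list passed higher and 7 lower, where 1.96% of all genes passed. *Il6*, *Ereg* and *Mmp12*, with mean levels below 100, did not pass under that rule.

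In the proliferation list, 24 of 25 genes lay below 0, 8 fell (32%, where 2.33% of all genes were called lower) and 0 rose, and the median log2 difference was -0.45. *Ccnb2*, a mitotic cyclin, fell from 837.7 and 913.7 to 516.2 and 536.5 (-0.73, FDR = 0.197 by limma). *Birc5*, which encodes survivin, fell by 0.64 (FDR = 0.21), *Top2a*, the topoisomerase of dividing cells, by 0.61 (FDR = 0.206), and *Mki67*, which encodes the Ki-67 antigen, by 0.56 (FDR = 0.21). Under the methods' rule 3 genes of the list passed, all lower, where 1.96% of all genes did. *Mki67*, with a fall of less than 1.5-fold, did not pass under that rule. The arrays did not overlap for 22 genes with aged mice lower and for 1 with aged mice higher, of 25, where 46.0% of all genes did not overlap.

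**Figure D4:**
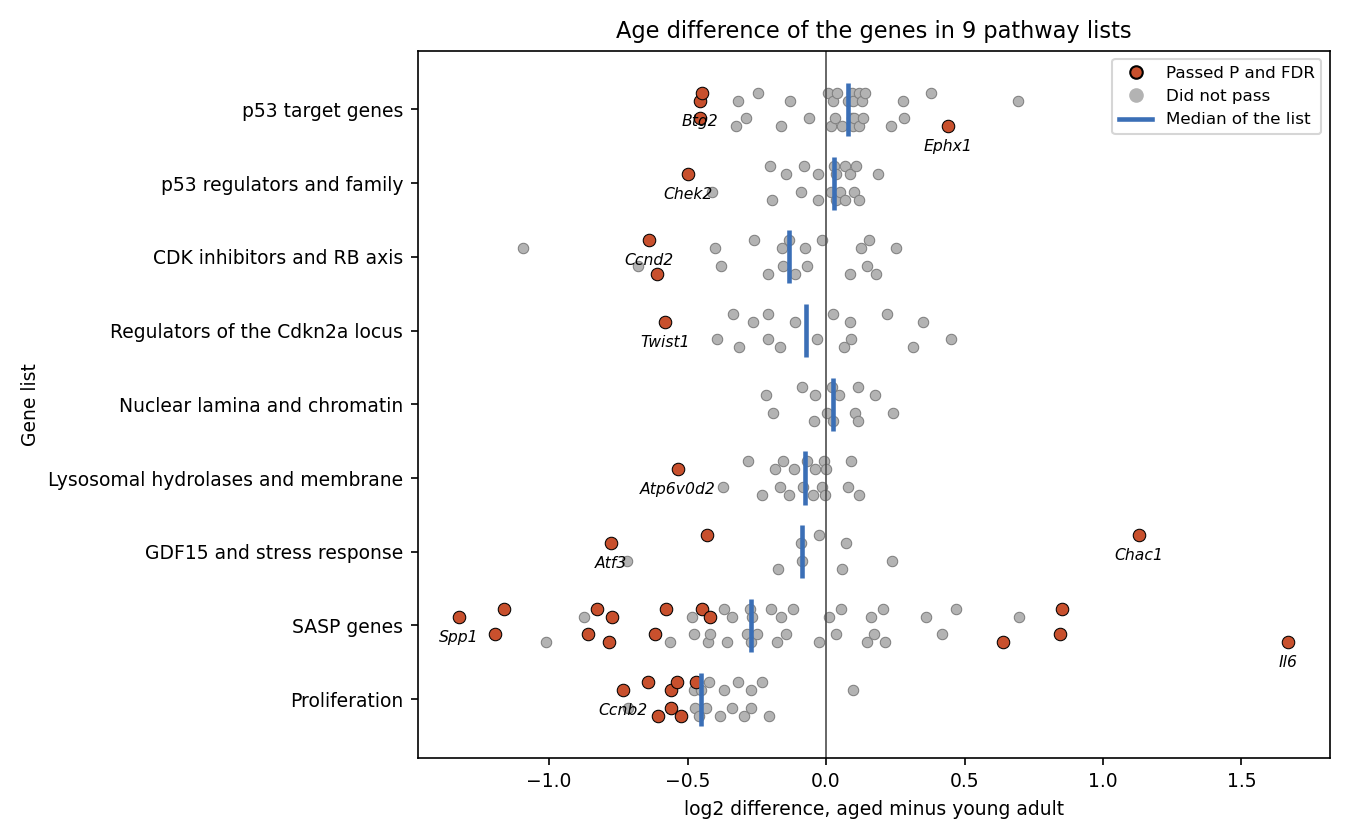
log2 difference (aged minus young adult) of every measured gene in the 9 pathway lists, with genes that passed the *P* and FDR criteria in red and named where furthest from 0 in their direction, the others in grey, and the median of each list as a blue bar. The lists of p53 targets, p53 regulators and the lamina lie around 0 (medians 0.078, 0.028 and 0.024), whereas the SASP and proliferation lists lie lower (medians -0.27 and -0.45) with red points on both sides of 0 for SASP genes and below 0 only for proliferation genes.

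Markers of other cell types were read with the same criteria, which 3.98% of all genes passed (1.65% higher and 2.33% lower in aged mice). A single call in a list of 8 genes is 12.5% of it. Of 9 markers of osteoblasts and osteoclasts, 7 fell and 0 rose, and their summed level went from between 59660 and 60100 on the young adult arrays to between 21810 and 22130 on the aged arrays. Macrophage markers fell for 3 of 9 (summed level 13230 to 13370 against 10830 to 10900), fibroblast markers fell for 4 and rose for 1 of 8 (228200 to 252700 against 121800 to 129400), and neutrophil markers fell for 4 of 8 measured (267300 to 278500 against 165000 to 174600). Nearly all of the neutrophil sum was *Ltf*, lactoferrin, which nasal glands also secrete, with levels of 266000 and 254100 in the young adult pools against 167900 and 158300 in the aged pools. For mature ORNs 1 of 10 markers rose and 0 fell (570200 to 579000 against 632200 to 640100). Of the cells that divide in this tissue, basal cell markers fell for 2 of 6 (*Krt5* and *Kit*), with summed levels of 34460 to 34500 against 27870 to 28410. Of these 2, *Krt5* did not pass under the methods' rule. In that list 5 genes lay below 0 and 1 above, *Trp63* at 0.051 (FDR = 0.80 by limma). *Sox2*, at -0.041 (FDR = 0.88), had arrays that overlapped between ages. Markers of immature ORNs and progenitors fell for 1 of 8, with 7 of 8 below 0 (42830 to 44120 against 34930 to 35640). Endothelial markers fell for 3 of 6 (11700 to 11860 against 8155 to 8337) and cartilage markers for 3 of 6 (3550 to 3672 against 2321 to 2369). Lung alveolar markers fell for 2 of 8 (25210 to 26870 against 22630 to 24670), those of sustentacular cells and glands rose for 1 of 8, those of respiratory and ciliated cells rose for 1 and fell for 1 of 8, and no T or B cell marker passed in limma, with an unadjusted *P* below 0.05 for 0 of 8.

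Pituitary markers, from a gland outside the mucosa, rose for 2 of 8 measured (25%, where 1.65% of all genes were called higher). Their summed level went from between 1182 and 1244 on the young adult arrays to between 9312 and 9835 on the aged arrays. *Prl*, prolactin, rose from 282.5 and 237.6 to 8155 and 7969 (log2 difference 4.96, FDR = 0.102 by limma), and *Gh*, growth hormone, well above background on the aged arrays only, had levels of 37.3 and 37.1 against 326.2 and 336.1. Of the other pituitary markers, *Fshb*, *Pou1f1* and *Tshb* cleared the background on no array. The part of any of these marker shifts in the results for the pathway lists, or for the 9 genes, was not tested. With any of the 4 arrays left out in turn, 1 age is held by a single array. Such a fit can give the size of a difference but cannot decide whether a gene passes. The median log2 difference then ran from -0.49 to -0.38 for the proliferation list and from -0.31 to -0.16 for the SASP list.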

How the data were processed

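Septal nasal mucosa RNA was labelled, hybridized and scanned by the authors, whose Agilent Feature Extraction software (version 11.0.1.1 per the file headers) gave, for each spot, the deposited median intensity, local background intensity, processed intensity and quality flags, without normalization between arrays. The deposited series table repeats the processed intensity (62976 of 62976 spots equal on each array). The submitters' notes name R 3.2.1.

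From these intensities, limma 3.58.1 in R 4.3.3 corrected the background of the median signal (normexp, offset 0), control spots and outlier-flagged spots (88 to 118 per array) were dropped, spots of a probe were averaged, arrays were quantile normalized, and log2 values were averaged over the probes of each gene. Accessions were matched to RefSeq symbols (GRCm38.p6) for 32994 of 56605 probes (58.3%). The array was designed on another build, so probes were given no coordinates. Ages were compared with lmFit and eBayes (2 residual and 1.38 prior degrees of freedom), two-sided, and called at *P* below 0.05 and Benjamini-Hochberg FDR below 0.25 over the 45604 genes with a value on every array. The fit was tested on simulated data. For arrays, their number limits the precision.

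The members and gene lists were chosen with earlier results of these data known. All 9 genes are named with each probe, and from each list the called genes, at most 4 per direction by size. Also named are 3 p53 targets that did not pass, chosen after their values were seen, and markers needed to describe a cell type. Alternatives were other offsets, signals, scalings, flags, a dim-probe filter, the brightest probe, an eBayes trend, a replicate block, 1 slide alone, each array left out, and stricter thresholds.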

Additional observations from a re-analysis of the deposited data

How the results depend on the processing

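Precision was limited by 2 pools per age and, for *Cdkn2a* and 1 probe of *Cdkn1a*, by signal close to background. Counts of members that passed moved from 0 to 1 higher and from 0 to 1 lower when dim probes were left out, and from 0 to 1 lower with an eBayes trend. Pathway genes that passed numbered 6 higher and 29 lower as reported; the higher count was 10 with an offset of 16 or with the processed signal and quantile normalization, 13 without background correction, 14 with an offset of 50, 20 without dim probes, 24 with the trend and 3 under the methods' rule for differentially expressed genes (mean level 100 or more, fold change 1.5 or more), and the lower count was 49 with an offset of 50, 47 without background correction or with the processed signal and quantile normalization, 67 without dim probes, 66 with the trend and 13 under that rule. Cell markers that passed numbered 6 higher and 30 lower; the higher count was 10 with an offset of 50 or with the processed signal and quantile normalization, 13 without dim probes, 16 with the trend and 3 under that rule, and the lower count was 47 with an offset of 50 and 50 without dim probes or with the trend. At an FDR below 0.05 each of these counts was 0. With an array left out, 1 age is held by a single array, and counts of genes that pass are not given. The share of all genes that passed moved in the same direction in these settings, from 3.98% as reported. It was 6.55% with an offset of 16, 8.83% without background correction and 9.59% with the processed signal and quantile normalization. It was 10% with an offset of 50, 15.6% with the trend, 24.2% without dim probes and 1.96% under the methods' rule. Without dim probes, 29495 genes were tested in place of 45604. The cause of these moves was not tested.

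The log2 difference took the opposite sign in 15 cases. For *Cdkn1a* (-0.020 as reported) it was 0.041 with an offset of 16, 0.084 with an offset of 50, 0.057 without background correction, 0.052 with the processed signal and 75th percentile scaling, 0.0027 with 75th percentile scaling, 0.29 without dim probes or with the brightest probe, 0.10 without young adult replicate 1 and 0.024 without aged replicate 1; without dim probes and with the brightest probe, only the bright probe is used by construction. For *Mdm2* (-0.012) it was 0.061 and 0.048 with the processed signal under 75th percentile scaling and quantile normalization, 0.011 with 75th percentile scaling and 0.012 without young adult replicate 1. For *Trp53* (-0.15) it was 0.042 without young adult replicate 1, and for *Gdf15* (0.10) it was -0.016 on the arrays of the shared slide. Of these, *Cdkn1a* without dim probes passed the test. With each array left out in turn the log2 difference ranged from -0.13 to 0.10 for *Cdkn1a*, from -0.33 to 0.042 for *Trp53* and from -0.033 to 0.012 for *Mdm2*.

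Deviations of the arrays numbered 1 from their age means correlated across genes at -0.0779. With 2 arrays per age, this cannot show whether the replicate numbers in the titles pair the pools. The replicate block leaves fewer residual degrees of freedom than the 2 of the main fit. With it 0 members, 0 pathway genes and 0 cell markers passed, the smallest FDR of any gene being 0.433. The slide as a random block could not be fitted, because no correlation within slides could be estimated; the shared slide alone gives the within-slide values in the report.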
